A study of Mus musculus with 8 samples.

Results

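The 30 genes described here encode the carnitine shuttle, mitochondrial beta-oxidation, electron transfer from it, 2 ketone body enzymes, a pyruvate dehydrogenase kinase and 2 fatty acid uptake and binding proteins. They were chosen by name, and all 30 were found once each among the 30266 genes of the deposited table. RNA of liver was sequenced from 8-week-old male mice labelled Mdr2-/- that had received vehicle (PBS, 4 libraries) or 1.0 mg/kg recombinant FGF21 (rFGF21, 4 libraries) 4 h earlier. All mice of both groups carried the Mdr2-/- genotype, and no wild-type group was compared. Mdr2 is the older name of Abcb4, which moves phospholipid into bile, and its loss in mice is a known model of cholestasis. The labels give neither the strain nor the route of injection, and do not state whether every sample is a separate mouse. The p-values therefore speak only of the spread among the libraries.

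Fatty acids enter hepatocyte mitochondria as carnitine esters. Cpt1a on the outer membrane makes the ester, the carrier Slc25a20 moves it inward, and Cpt2 on the inner membrane returns it to coenzyme A. Acyl-CoA dehydrogenases of different chain lengths then start each turn of beta-oxidation, and in the fed-to-fasted switch the liver turns the resulting acetyl-CoA into ketone bodies. Many of these genes are known targets of PPAR-alpha, and FGF21 is a hormone known for its part in the liver's response to fasting.

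The libraries held 62756328 to 73313449 counts. The table's counts were compared with edgeR's quasi-likelihood test over 18315 genes, with adjustment by Benjamini-Hochberg over all of them. Normalized counts are counts relative to library size (CPM) after TMM scaling. The extraction protocol in the labels names retina, while the tissue is labelled liver. Hepatocyte markers summed to between 58090 and 81129 CPM in the 8 libraries, and the photoreceptor genes Crx and Rcvrn had no read in any of them. A single PBS library, number 4, stood apart: transcripts of the mitochondrial genome took 7.96% of its counts, against 3.27% to 4.55% in the other 7. For the 30 genes and their ratios, results without it are given below where a call changes or an estimate moves by over 1.5 times. For other genes of the pathway they are given where a call changes. Libraries are named by the numbers in the table's columns (PBS 1, 2, 4 and 5; rFGF21 1, 2, 3 and 5). In whole liver, fewer cells of a type and less RNA per cell cannot be told apart.

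Transcripts of 3 of the 30 genes fell after rFGF21 and none rose; none was higher at an unadjusted p under 0.05, and DESeq2 called 9 lower (4.53% of all its genes were called lower) and 0 higher. Cpt2 of the carnitine shuttle fell 1.51-fold, Crat, the acetyl-carnitine transferase, fell 1.82-fold, and Eci1, an isomerase for unsaturated chains, fell 1.42-fold. Across all genes tested, 2.82% were called changed and 1.67% were called lower, against 10% of the 30. The split of calls over all genes moved with the scaling: 306 of 516 were lower with TMM factors and 178 of 435 with library totals alone, which shifted the median of all genes to 0.087 and left Cpt2 as the 1 call among the 30. The estimated log2 fold change was below 0 in 29 of the 30 genes, with a median of -0.32, where 49.6% of all genes tested were below 0 and their median was 0.0034 with TMM factors. An unadjusted p under 0.05 with a lower level was found in 16 of the 30 (53.3%), against 9.86% of all genes. The 4 rFGF21 libraries all lay below the 4 PBS libraries in 10 of the 30 (33.3%), against 6.39% of all genes. The other 27 of the 30 did not pass the adjusted test, among them Slc22a5 and Slc25a20, whose estimates were as far below 0 as those of genes that did. Besides the 3 called by edgeR, DESeq2's calls were Slc25a20, Acadm, Acad10, Hadha, Hadh and Etfdh. The count of genes called lower was 9 without PBS library 4 (1.54% of all genes then), 2 without PBS library 2 and 3 without rFGF21 library 3. It was 1 when any of the other 5 (PBS 1 and 5, rFGF21 1, 2 and 5) was left out. Calls over all genes also fell: 0.70% to 1.48% were called changed in those 5 fits, against 2.82% with all libraries. That share was 1.89% without PBS library 2 and 1.52% without rFGF21 library 3.

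**Figure D1:**
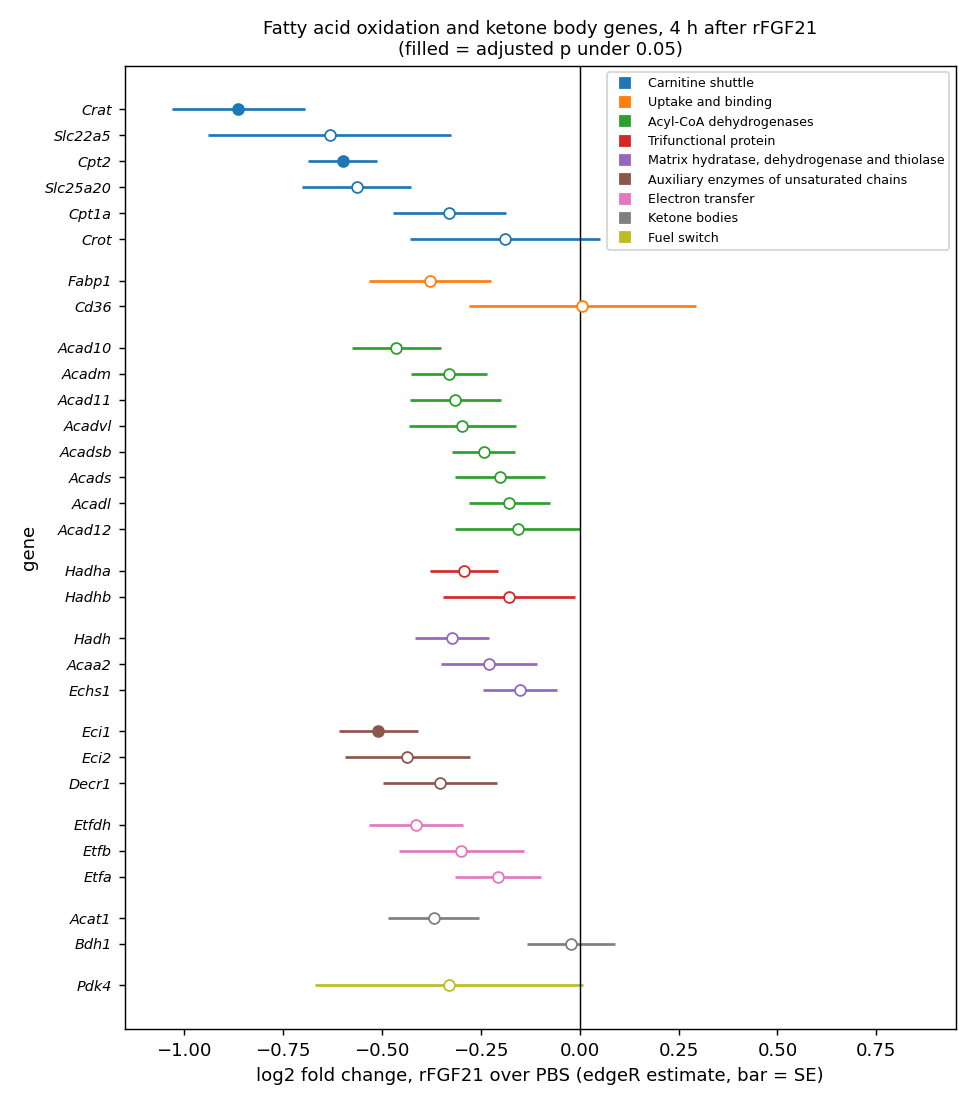
Log2 fold change of each gene, rFGF21 over PBS (x axis, edgeR estimate with its SE as a bar), with genes (y axis) grouped and coloured by role; filled points passed the adjusted test. All points but that of Cd36 lie left of 0, and Crat lies farthest left at -0.86.

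The carnitine shuttle held 2 of the 3 decreases and the largest median change of the roles with more than 1 gene (-0.58). Cpt2 (ENSMUSG00000028607, GRCm38 chromosome 4, 107903981 to 107923610, minus strand) stood at 103, 109, 93.2 and 107 CPM in PBS libraries 1, 2, 4 and 5. In rFGF21 libraries 1, 2, 3 and 5 it stood at 63.1, 70.7, 73.5 and 65.0 CPM. Every rFGF21 library was below every PBS library, and the gap between the groups was wider than the range within either. The mean fell from 103 ± 7.1 to 68.1 ± 4.8 CPM (SD, n = 4 each; log2 fold change -0.60 ± 0.09 SE, edgeR adjusted p = 0.00876), and the call held whichever single library was left out (edgeR adjusted p 0.0101 to 0.0429).

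Crat moves acetyl groups between coenzyme A and carnitine and so buffers the acetyl-CoA pool. Its normalized counts were 49.8, 74.4, 42.3 and 48.8 CPM in PBS libraries 1, 2, 4 and 5, and 26.5, 25.9, 33.5 and 32.6 CPM in rFGF21 libraries 1, 2, 3 and 5. The groups did not overlap, and PBS library 2 was the high value of its group. Crat fell from 53.8 ± 14.1 to 29.6 ± 4.0 CPM (log2 fold change -0.86 ± 0.17 SE, edgeR adjusted p = 0.0277). Leaving out PBS library 1 or 5 raised Crat above the threshold of 0.05 (edgeR adjusted p = 0.0594 and 0.0530), as did leaving out rFGF21 library 1, 2 or 5 (0.0968, 0.0723 and 0.0640), at log2 fold changes of -0.79 to -0.91. An antisense gene, Gm16323, overlaps Crat by 1623 bases, and no source used here gives the strand setting of the counting.

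The carrier Slc25a20 was read at 74.6, 76.4, 55.2 and 90.6 CPM in PBS and at 46.3, 47.5, 56.6 and 50.5 CPM in rFGF21 libraries. The groups overlapped through PBS library 4, which lay just below rFGF21 library 3. Its log2 fold change of -0.56 ± 0.14 did not pass by edgeR (adjusted p = 0.0585) but did by DESeq2 (0.00627); without PBS library 4 it was -0.68 ± 0.10 and passed (0.0129). Cpt1a, the outer and rate-controlling palmitoyltransferase, was at 457, 566, 426 and 638 CPM in PBS and at 400, 470, 428 and 364 CPM in rFGF21 libraries. Its groups overlapped, and its log2 fold change of -0.33 ± 0.14 had an edgeR adjusted p of 0.244 (-0.21 without PBS library 5). Slc22a5, the plasma membrane carnitine carrier, ranged 16.1 to 49.6 CPM in PBS and 15.6 to 28.6 CPM in rFGF21 (-0.63 ± 0.31, edgeR adjusted p = 0.301). Its estimate was -0.33 without PBS library 5, its highest value, and -0.85 without PBS library 4, its lowest in PBS. Crot, which handles medium chains shortened in peroxisomes, spread from 285 to 711 CPM within PBS alone, and its log2 fold change was -0.19 ± 0.24 (0.730). Without PBS library 2, its highest value, the Crot estimate was 0.046, and without PBS library 4, its lowest, it was -0.37. Leaving out rFGF21 library 1 gave -0.084 and rFGF21 library 5 gave -0.30.

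**Figure D2:**
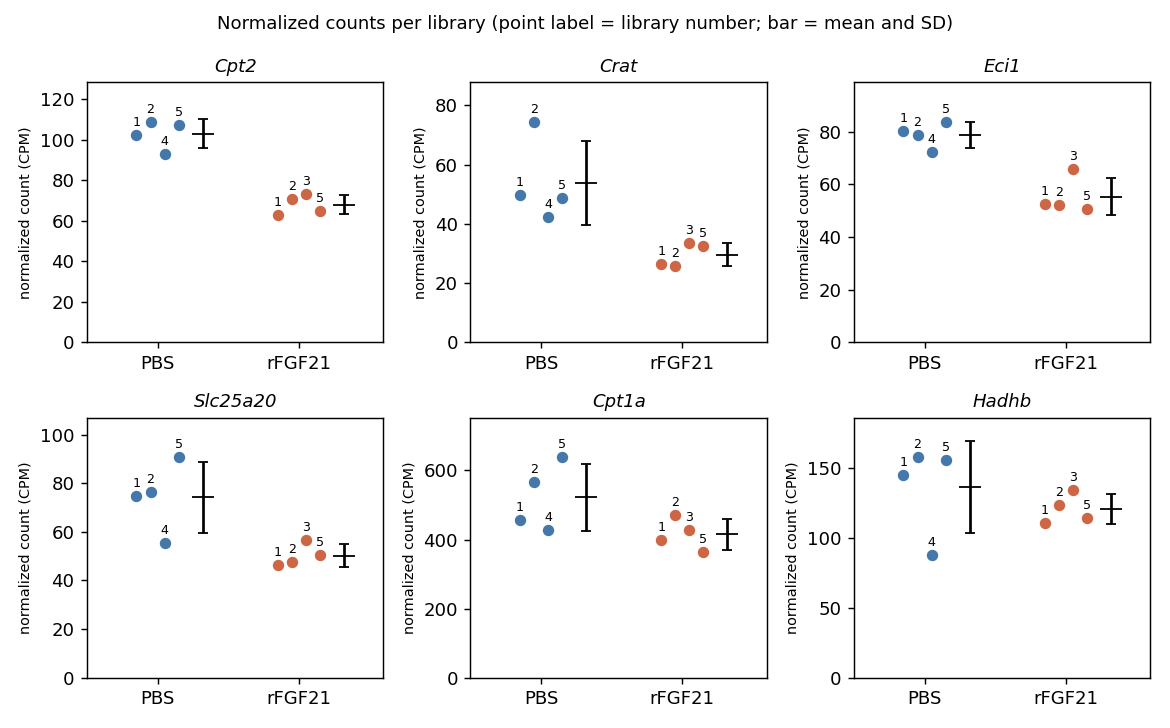
Normalized counts in CPM (y axis from 0) of 6 genes in each PBS and rFGF21 library (points, labelled with the library number), with the mean and SD of each group as bars. Cpt2, Crat and Eci1 do not overlap between groups, while Slc25a20 and Hadhb overlap through PBS library 4.

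Promoter stretches are shown for the called genes Cpt2 and Eci1, for the gap that separates the head-to-head genes Hadha and Hadhb, and for Fabp1. They come from RefSeq windows of 250 bases before to 50 after a gene's start (GRCm38.p6), cut to the part before the start that holds no annotated GENCODE exon. Of the 30 genes, 26 had a window; Acaa2, Acat1, Crat and Decr1 had no entry. Each is printed 5′ to 3′ on the gene's strand, and the capitals mark a GC box (GGGCGG), an ETS core (CCGGAAG) or a DR1 repeat (the kind of site PPAR-alpha binds), on either strand. The Cpt2 stretch is chr4:107923611-107923839 (minus strand), that of Eci1 is chr17:24426433-24426640 (plus strand), that of the Hadha and Hadhb gap is chr5:30155163-30155247 (plus strand), and that of Fabp1 is chr6:71199629-71199826 (plus strand).
Cpt2: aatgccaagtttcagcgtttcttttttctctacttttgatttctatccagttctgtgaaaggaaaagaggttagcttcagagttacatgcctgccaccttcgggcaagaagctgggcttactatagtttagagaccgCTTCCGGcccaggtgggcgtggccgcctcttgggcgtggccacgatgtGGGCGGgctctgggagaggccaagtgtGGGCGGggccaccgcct
Eci1: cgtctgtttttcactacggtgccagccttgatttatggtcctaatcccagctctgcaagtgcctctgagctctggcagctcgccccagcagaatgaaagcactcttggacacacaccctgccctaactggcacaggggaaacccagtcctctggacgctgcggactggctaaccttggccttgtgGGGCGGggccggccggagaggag
Hadhb: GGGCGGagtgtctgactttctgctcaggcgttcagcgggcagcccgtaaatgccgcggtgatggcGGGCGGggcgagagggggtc
Fabp1: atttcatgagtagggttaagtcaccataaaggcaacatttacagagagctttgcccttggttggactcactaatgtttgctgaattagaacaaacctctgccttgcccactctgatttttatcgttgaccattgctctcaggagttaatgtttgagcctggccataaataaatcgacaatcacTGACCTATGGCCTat
The Cpt2 stretch held 2 GC boxes and 1 ETS core, which lies on the opposite strand. The Fabp1 stretch ends in a DR1 repeat on the opposite strand, and no other of the 26 genes had a DR1 match in its window (3.85%, against 0.451% of all genes). Over whole windows and both strands, the GC box was found in 19 of 26 genes (73.1%), against 38.2% of 27025 genes with a window. The NRF1 motif was found in 5 (19.2%, against 5.19%): Acad10, Acad12, Etfb, Etfdh and Slc22a5. The ETS core was found in Cpt2, Crot and Slc25a20 (11.5%, against 9.93%), which is near the share of all genes. The YY1 core (AAGATGG) was found in Acadvl, Eci1 and Hadha (11.5%, against 7.28%). The CCAAT box (CCAAT) was found in 10 (38.5%, against 41.1%). The ERR element (TCAAGGTCA) and the E-box (CACGTG) had no match in the 26, against 0.466% and 8.09% of all genes. No searched motif contains another. A match is a description of letters in this window only.

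Neither gene of fatty acid uptake and binding passed by edgeR or by DESeq2, and Fabp1 alone had an unadjusted p under 0.05. Fabp1, the abundant fatty acid binding protein of the hepatocyte cytosol, was at 846, 838, 594 and 953 CPM in PBS and at 640, 500, 677 and 669 CPM in rFGF21 libraries. PBS library 4 lay within the rFGF21 range and the other 3 above it (log2 fold change -0.38 ± 0.15, edgeR adjusted p = 0.218; -0.50 ± 0.12 and 0.0660 without PBS library 4). Cd36, a fatty acid translocase that macrophages and endothelium also carry, gave the 1 estimate not below 0 (0.01 ± 0.29). It ranged 59.8 to 145 CPM in both groups together, the estimate was 0.07 without PBS library 4, and its sign changed in 5 of 17 alternatives. Summed markers of Kupffer cells and macrophages ranged 402 to 698 CPM in PBS and 184 to 561 CPM in rFGF21, and those of sinusoidal endothelium 72 to 151 and 65.7 to 130 CPM. Cd36 was highest in PBS library 2 and rFGF21 library 3. PBS library 2 also had the highest sum of adipocyte markers, 5.91 CPM, against at most 0.752 CPM in the other 7. The part of these cells in the Cd36 values was not tested.

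The 8 acyl-CoA dehydrogenases all had estimates below 0 (median -0.27), but none passed edgeR's test over all genes; 4 had an unadjusted p under 0.05, and DESeq2 called Acad10 and Acadm. Acadm, the medium-chain enzyme, was at 365, 387, 362 and 331 CPM in PBS and at 269, 283, 318 and 279 CPM in rFGF21 libraries. Its groups did not overlap, although rFGF21 library 3 came close to PBS library 5 (log2 fold change -0.33 ± 0.10, edgeR adjusted p = 0.0983). Acadvl, the very long-chain enzyme of the inner membrane, was at 333, 326, 226 and 362 CPM in PBS and at 254, 246, 264 and 251 CPM in rFGF21 libraries. PBS library 4 was the lowest of all 8, and the other 3 PBS libraries were above every rFGF21 library. Its log2 fold change was -0.30 ± 0.14 (edgeR adjusted p = 0.273) with all libraries and -0.42 ± 0.08 (0.0336) without PBS library 4.

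The short-chain and long-chain enzymes Acads and Acadl gave smaller estimates (-0.20 ± 0.11 and -0.18 ± 0.10, edgeR adjusted p = 0.375 and 0.384). Their groups overlapped: Acads ranged 117 to 160 CPM in PBS and 119 to 140 in rFGF21, and Acadl 137 to 180 and 136 to 156 CPM. Acad10 was at 42.6, 35.4, 33.8 and 34.3 CPM in PBS and at 24.2, 30.8, 26.9 and 24.1 CPM in rFGF21 libraries, without overlap (-0.46 ± 0.11, edgeR adjusted p = 0.0563). Its neighbour on chromosome 5, Acad12, ranged 13.6 to 21.7 and 15.3 to 20.9 CPM (-0.16 ± 0.16, 0.651; -0.29 without PBS library 4). Acadsb, which acts on short branched chains from isoleucine, did not overlap between groups either, at 93.2 to 107 and 80.4 to 89.9 CPM (-0.24 ± 0.08, 0.133). Acadsb lies wholly within the span of Fgfr2 on the opposite strand. Whether their exons overlap, and so whether they could share counts, was not tested. Acad11 ranged 253 to 338 and 219 to 260 CPM (-0.31 ± 0.11, 0.171).

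The trifunctional protein, which carries out the last 3 steps of the cycle for long chains, is built from Hadha and Hadhb. Hadha (chromosome 5, 30118304 to 30155162, minus strand) was at 251, 276, 239 and 268 CPM in PBS and at 213, 210, 215 and 207 CPM in rFGF21 libraries. The groups did not overlap, and the rFGF21 libraries lay close together (log2 fold change -0.29 ± 0.09, edgeR adjusted p = 0.103, DESeq2 adjusted p = 0.0167). Hadhb (30155248 to 30184593, plus strand), which starts across a gap of 85 bases on the opposite strand, was at 145, 158, 88.0 and 155 CPM in PBS and at 110, 123, 134 and 114 CPM in rFGF21 libraries. PBS library 4 was far below all others, and the other 3 were above every rFGF21 library. The log2 fold change of Hadhb was -0.18 ± 0.17 (edgeR adjusted p = 0.621) with all libraries and -0.34 ± 0.09 (0.0874) without PBS library 4, where that of Hadha was -0.32 ± 0.08 (0.0636).

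In the matrix, Hadh, which oxidizes short and medium 3-hydroxyacyl-CoA, was at 251, 249.5, 232 and 222 CPM in PBS and at 202, 169, 198 and 194 CPM in rFGF21 libraries. These groups did not overlap (-0.32 ± 0.09, edgeR adjusted p = 0.0986, DESeq2 adjusted p = 0.0208). The hydratase Echs1 (-0.15 ± 0.09, 0.421) and the thiolase Acaa2 (-0.23 ± 0.12, 0.339) overlapped between groups, at 149 to 187 and 148 to 160 CPM for Echs1 and 517 to 738 and 496 to 593 CPM for Acaa2.

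Among auxiliary enzymes, which bring the double bonds of unsaturated fatty acids into the cycle, Eci1 fell and the other 2 did not pass. Eci1 (ENSMUSG00000024132, chromosome 17, 24426641 to 24439348, plus strand) was at 80.4, 78.6, 72.2 and 83.7 CPM in PBS and at 52.7, 52.3, 65.8 and 50.7 CPM in rFGF21 libraries. The groups did not overlap, and rFGF21 library 3 was the high value of its group. Eci1 fell from 78.8 ± 4.8 to 55.4 ± 7.0 CPM (log2 fold change -0.51 ± 0.10 SE, edgeR adjusted p = 0.0277). Eci1 missed the threshold when PBS library 1, 2 or 5 was left out (edgeR adjusted p = 0.0733, 0.0578 and 0.0767) or rFGF21 library 1, 2 or 5 (0.0988, 0.0778 and 0.0841). Eci2, an isomerase also found in peroxisomes, was at 184, 209, 131 and 235 CPM in PBS and 127, 142, 148 and 144 CPM in rFGF21 libraries (-0.43 ± 0.16, 0.166). Decr1, the dienoyl-CoA reductase, was at 160, 165, 107 and 160 CPM in PBS and 116, 98.5, 130 and 119 CPM in rFGF21 libraries (-0.35 ± 0.14, 0.218). In both genes PBS library 4 lay among the rFGF21 libraries and the other 3 PBS libraries above all of them. Without PBS library 4, Eci2 (-0.57 ± 0.10, edgeR adjusted p = 0.0262) and Decr1 (-0.48 ± 0.10, 0.0440) passed.

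Electrons from the dehydrogenases pass to the flavoprotein of Etfa and Etfb and then to Etfdh, which hands them to ubiquinone. Etfdh was at 144, 171, 129 and 182 CPM in PBS and at 110, 114, 129 and 117 CPM in rFGF21 libraries. PBS library 4 and rFGF21 library 3 were nearly equal there, and the groups just failed to overlap (-0.41 ± 0.12, edgeR adjusted p = 0.0954, DESeq2 adjusted p = 0.0248; edgeR -0.49 ± 0.10 and 0.0407 without PBS library 4). Etfb was at 227, 208, 131 and 224 CPM in PBS and at 164, 166, 169 and 145 CPM in rFGF21 libraries, with PBS library 4 again the lowest (-0.30 ± 0.16, 0.345). Without that library Etfb passed (-0.45 ± 0.09, edgeR adjusted p = 0.0330). Another gene, Etfbl, overlaps the span of Etfb by 13673 bases on the same strand, so a strand setting could not separate them. Whether Etfb and Etfbl share counts was not tested. Etfa ranged 160 to 215 and 151 to 177 CPM (-0.21 ± 0.11, 0.337).

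The 2 ketone body enzymes had unlike estimates, and neither passed. Acat1, the mitochondrial thiolase that joins 2 acetyl-CoA, was at 141, 126, 125 and 141 CPM in PBS and at 107, 83.9, 100 and 121 CPM in rFGF21 libraries. Its groups did not overlap, but the difference did not pass (-0.37 ± 0.11, edgeR adjusted p = 0.119). Bdh1, which reduces acetoacetate to 3-hydroxybutyrate, was at 298, 309, 276 and 259 CPM in PBS and at 300, 239, 270 and 316 CPM in rFGF21 libraries. The groups overlapped widely (-0.02 ± 0.11, 0.940; -0.036 without PBS library 4), and the sign changed in 5 of 17 alternatives, among them scaling by library totals. Pdk4, a kinase that shuts off pyruvate dehydrogenase when fat is burnt, was low in all libraries, at 4.07 to 15.9 CPM in PBS and 6.70 to 10.6 CPM in rFGF21 (-0.33 ± 0.34, 0.657). Without PBS library 2 the Pdk4 estimate was 0.010, and without PBS library 4 it was -0.58.

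To compare partner genes directly, the log2 ratio of 9 pairs was taken within each library and tested by exact permutation over libraries (two-sided; 0.0286 is the smallest p that 4 against 4 can give). The ratio of Crat to Crot was lower after rFGF21 by 0.69 on the log2 scale (-3.13 ± 0.27 in PBS, -3.82 ± 0.17 in rFGF21, SD, n = 4 each; exact permutation p = 0.0286, adjusted over the 9 pairs 0.129). The ratio of Bdh1 to Acat1 was higher by 0.35 (1.10 ± 0.17 and 1.45 ± 0.05; exact permutation p = 0.0286, adjusted 0.129). In both pairs the groups did not overlap. No pair passed after adjustment, which this design allows only if most of the 9 pairs reach the smallest p, so the adjusted values say little about single pairs. The ratio of Cpt2 to Cpt1a was -2.32 ± 0.19 in PBS and -2.60 ± 0.11 in rFGF21 (exact permutation p = 0.0857, adjusted 0.257), so a larger decrease of Cpt2 than of Cpt1a was not shown. For chain length, Acads to Acadm differed by 0.14 (exact permutation p = 0.371) and Acadvl to Acadl by -0.10 (exact permutation p = 0.229). Without PBS library 4 the Acads/Acadm ratio differed by 0.033 and the Acadvl/Acadl ratio by -0.17, the latter with no overlap between groups (exact permutation, adjusted p = 0.0857). The Hadha/Hadhb ratio differed by -0.14 (exact permutation p = 0.629) with all libraries and by 0.017 without PBS library 4, in which the ratio was 1.44 against 0.78 to 0.81 in the other PBS libraries. The differences were -0.22 for Slc25a20 to Cpt1a (exact permutation p = 0.171), -0.20 for Etfdh to Etfa (0.143, exact permutation) and 0.11 for Eci2 to Eci1 (0.514, exact permutation). The Eci2/Eci1 ratio changed sign, to a difference of -0.019, without PBS library 4.

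Levels of different genes can be compared only per length, and were taken as normalized CPM per kilobase of the median coding transcript in GENCODE M21. On that scale Fabp1 was the highest in PBS at 1460 ± 275, followed by Acaa2 at 421 ± 60.9 and Etfb at 221 ± 50.3 CPM per kilobase. The Etfb level may be affected by Etfbl, which overlaps it on the same strand, and this was not tested. Pdk4 was the lowest at 2.81 ± 1.44 CPM per kilobase. The order depends on the length used: the union of all annotated exons, retained introns included, spans 8286 bases for Echs1 against a coding transcript of 1557 bases, while for Fabp1 both are 553 bases. Echs1 was rank 12 of 30 per coding transcript and rank 23 per union of exons, and Eci2 was rank 9 and rank 17.

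Among the dehydrogenases the order in PBS per coding transcript was Acadm (176 ± 11.3 CPM per kilobase), Acadvl (149 ± 28.3), Acad11 (92.7 ± 12.5), Acadl (84.8 ± 9.4), Acads (78.2 ± 10.7), Acadsb (23.4 ± 1.3), Acad10 (9.80 ± 1.10) and Acad12 (6.28 ± 1.24). Neighbours from Acadm to Acads overlapped in their PBS libraries and are not ordered beyond their spread, whereas Acads, Acadsb, Acad10 and Acad12 each lay apart from the next. Within the carnitine shuttle, Crot (163 ± 58.4) and Cpt1a (121 ± 22.7) overlapped and lay above Cpt2 (60.8 ± 4.2), Slc25a20 (41.6 ± 8.2), Crat (14.0 ± 3.7) and Slc22a5 (10.4 ± 4.6 CPM per kilobase), of which the last 2 overlapped. Hadhb and Hadha, at 66.7 ± 16.0 and 64.4 ± 4.1 CPM per kilobase, overlapped.

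**Figure D3:**
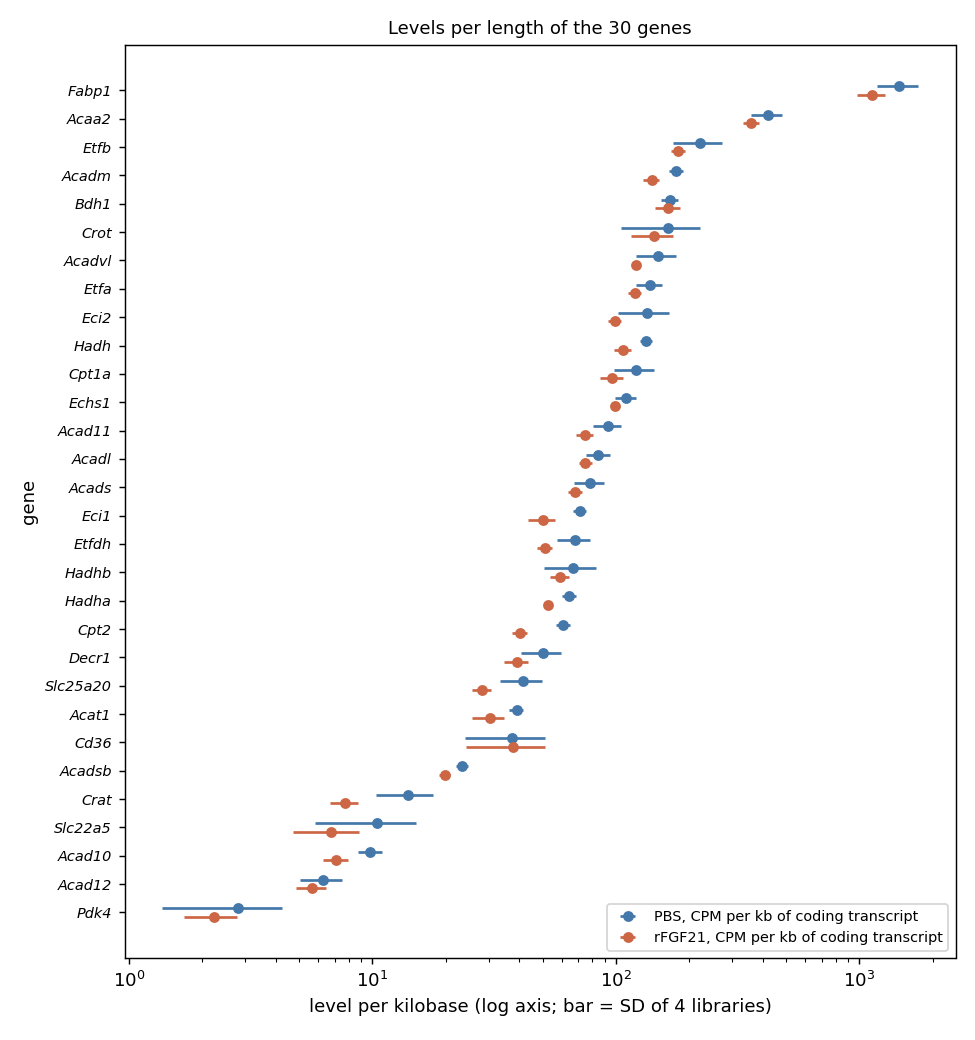
Level per kilobase (x axis, log scale) of the 30 genes (y axis, ordered by the PBS level) in PBS and rFGF21 libraries as CPM per kilobase of coding transcript (points with SD of 4 libraries). Fabp1 is at the top with 1460 in PBS and Pdk4 at the bottom with 2.81.

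PBS library 4 was the lowest of its group in 25 of the 30 genes, against 32.5% of all genes tested. Relative to the PBS mean, the median log2 level of the 30 genes was -0.27 in PBS library 4, 0.04 to 0.11 in the other PBS libraries and -0.32 to -0.22 in the rFGF21 libraries. Taken over these genes, PBS library 4 thus lay among the rFGF21 libraries. Among rFGF21 libraries, number 3 was the highest in 18 of the 30 genes, against 23.2% of all genes tested. The sum of hepatocyte markers was highest in PBS library 4, at 81129 CPM, of which Alb alone gave 63436.5 CPM. Among the PBS libraries, only Alb was highest in number 4. Apoa1, Serpina1c, Tat and Cps1 were highest in number 5 and Ttr in number 1. Whether what sets that library apart bears on the 30 genes was not tested. The median log2 fold change of the 30 genes was -0.38 without that library, and 9 were called lower: Cpt2, Crat, Eci1, Slc25a20, Eci2, Etfb, Acadvl, Etfdh and Decr1. With the mitochondrially coded genes left out before scaling, Cpt2, Crat and Eci1 were called, as with all genes.

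**Figure D4:**
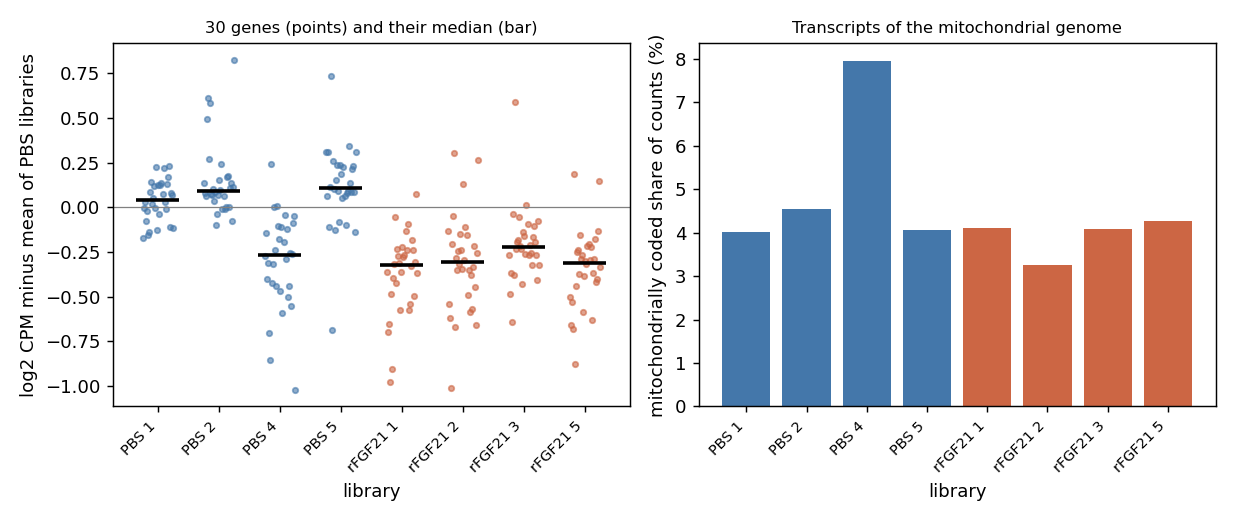
Left, log2 normalized count of each of the 30 genes (points) relative to the mean of the PBS libraries, by library, with the median as a bar; right, the percentage of counts from the mitochondrial genome in each library. PBS library 4 has a median of -0.27 and a mitochondrially coded share of 7.96%.

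Markers of other cells moved between groups in part. Cholangiocyte markers summed to 171 to 265 CPM in PBS and to 237 to 368 CPM in rFGF21. All 6 had estimates above 0, 5 of them at an unadjusted p under 0.05, and none was called by edgeR over all genes (DESeq2 called Krt19 and Sox9). Hepatocyte markers summed to 63737 to 81129 and 58090 to 74234 CPM; none of the 6 was called by edgeR or DESeq2, and 1 (Tat) had an unadjusted p under 0.05. Neutrophil markers ranged 3.56 to 8.80 and 5.46 to 13.8 CPM, stellate cell markers 404 to 515 and 449 to 583 CPM, and lymphocyte markers 3.10 to 4.26 and 3.38 to 3.98 CPM. None of these was called by edgeR. Col1a1 of the stellate list did not overlap between groups (76.5 to 108 and 111 to 166 CPM) and was called higher by DESeq2, and Pdgfrb and the neutrophil gene S100a9 had unadjusted p of 0.0193 and 0.0219 with higher levels. Of the 6 Kupffer cell and macrophage markers 5 had estimates below 0 (median -0.51), with none called by either tool or at an unadjusted p under 0.05. The part of these cells in the results was not tested. Of the striated muscle markers Myh4 had no read, and the list summed to at most 0.141 CPM.

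Other genes of the pathway were read from lists by role. Of 86 such genes tested, 72 had estimates below 0 (median -0.24), against 49.6% of all genes tested. At an unadjusted p under 0.05, 36 were lower, against 9.86% of all genes, and 4 were higher. DESeq2 called Prkab1 higher. By edgeR's adjusted test 4 fell and none rose, where 1.67% of all genes were called lower. The 4 were Bbox1, which makes carnitine from its precursor (95.5 ± 7.7 to 58.6 ± 7.5 CPM, -0.71 ± 0.11, edgeR adjusted p = 0.0103), the pyruvate dehydrogenase kinase Pdk2 (120 ± 18.5 to 77.9 ± 7.4 CPM, -0.63 ± 0.12, 0.0234), the pyruvate dehydrogenase phosphatase Pdp2 (28.6 ± 8.0 to 14.0 ± 1.7 CPM, -1.03 ± 0.18, 0.0177), and the lipid droplet protein Plin5 (38.5 ± 10.005 to 21.3 ± 3.5 CPM, -0.86 ± 0.19, 0.0442). Pdk2 and Pdp2 act against each other on pyruvate dehydrogenase. Without PBS library 4, 9 of the other pathway genes were called, where 2.60% of all genes were called changed. Bbox1, Pdk2, Pdp2, Plin5, Acot1, Creb3l3, Mlycd and Pex11a fell, and the AMPK subunit Prkab1 rose (0.60 ± 0.10, edgeR adjusted p = 0.0206). Bbox1 held its call whichever library was left out. Plin5 kept it only without PBS library 4 (edgeR adjusted p 0.0517 to 0.130 in the other 7 fits). For Pdk2 it ended when PBS library 1 or rFGF21 library 1, 2 or 5 was left out (0.0558 to 0.0878), and for Pdp2 when rFGF21 library 1, 3 or 5 was (0.05005 to 0.0605).

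In ketone body synthesis, use and export, 0 of 8 genes passed by edgeR (2 at an unadjusted p under 0.05; DESeq2 called 1). Oxct1, which uses ketone bodies, was higher in every rFGF21 library (12.9 ± 2.9 and 17.5 ± 0.5 CPM) without passing (0.44 ± 0.15, edgeR adjusted p = 0.153).

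Malonyl-CoA and AMPK control had 0 of 10 genes called by edgeR. At an unadjusted p under 0.05, 5 were lower and 2 higher. DESeq2 called Acacb, Mlycd, Prkaa2 and Prkag2 lower and Prkab1 higher. Acacb, which makes the malonyl-CoA that inhibits Cpt1a, had a log2 fold change of -0.61 ± 0.16 (edgeR adjusted p = 0.0776), and Mlycd, which removes malonyl-CoA, -0.41 ± 0.10 (0.0628). The AMPK subunits Prkag2 and Prkaa2 had -0.34 ± 0.09 (0.0670) and -0.40 ± 0.12 (0.0988). Other AMPK subunits were above 0: Prkab1 (0.44 ± 0.14, edgeR adjusted p = 0.125), Prkaa1 (0.25 ± 0.11, 0.235) and Prkab2 (0.20 ± 0.12, 0.388). Prkag1 was near 0 (-0.05 ± 0.09, 0.831). Among 13 regulators none was called by edgeR (5 at an unadjusted p under 0.05; DESeq2 called Ppargc1a). Ppara itself had means of 33.3 ± 6.2 and 32.0 ± 1.8 CPM (log2 fold change -0.06 ± 0.13, edgeR adjusted p = 0.865), and the regulators with the smallest p were Lpin1 (-1.25 ± 0.44), Ppargc1a (-0.79 ± 0.29), Pparg (-0.33 ± 0.13) and Esrra (-0.32 ± 0.13), at edgeR adjusted p of 0.155 to 0.194.

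PPAR-alpha targets outside the mitochondrial matrix had a median of -0.64 over 12 genes, of which Plin5 passed. Pex11a (-0.55 ± 0.14, edgeR adjusted p = 0.0666) and Acot1 (-1.14 ± 0.35, 0.116) did not, and Plin2, Vnn1 and Ucp2 were not below 0 in their estimates (0.00, 0.28 and 0.16). Nuclear genes of general mitochondrial content, such as Cs and Vdac1, had a median of -0.15 over 10 genes, all below 0 and none called by edgeR (2 at an unadjusted p under 0.05; DESeq2 called none). The 9 mitochondrially coded genes had a median of -0.49 and none was called by edgeR (6 at an unadjusted p under 0.05) or DESeq2. Each was highest in PBS library 4, and without that library their estimates ran from -0.27 (mt-Nd2) to 0.07 (mt-Nd5). The other acyl-CoA dehydrogenases and matrix enzymes had a median of -0.24 with 10 of 10 below 0 and none called by edgeR (5 at an unadjusted p under 0.05); Gcdh of lysine breakdown came closest (-0.39 ± 0.11, edgeR adjusted p = 0.0987; DESeq2 called it).

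**Figure D5:**
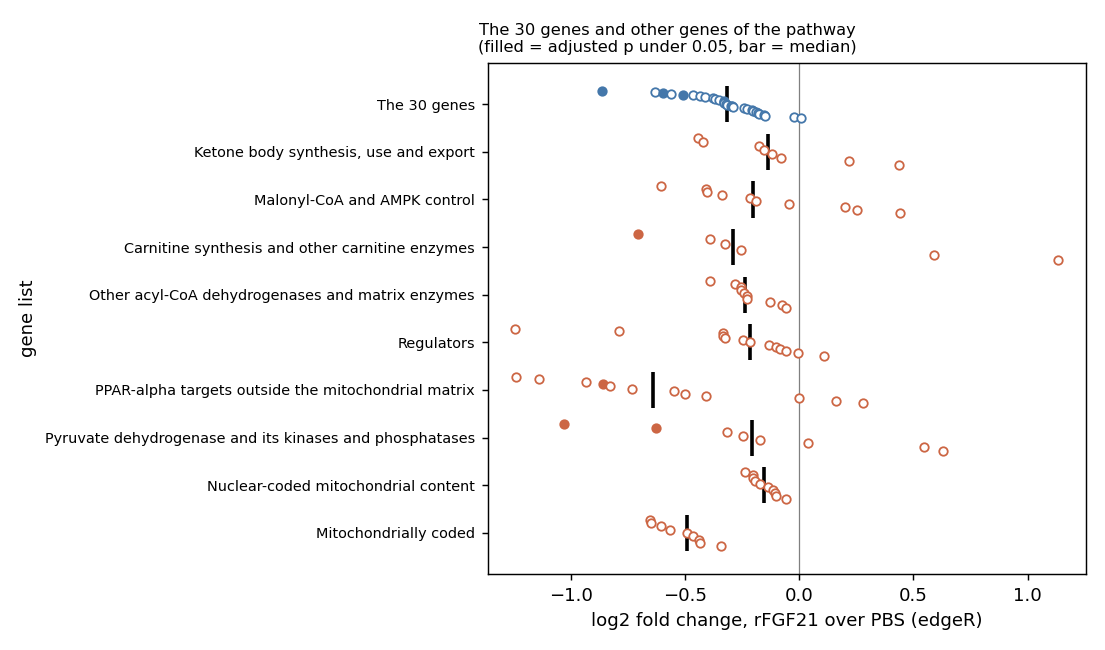
Log2 fold change (x axis, edgeR, rFGF21 over PBS) of each tested gene of the 30 and of the other lists of the pathway (y axis), with the median of each list as a bar and called genes filled. The medians of all 10 rows lie below 0, from -0.64 for PPAR-alpha targets to -0.14 for ketone body genes.

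The annotation terms in the deposited table placed 27 of the 30 genes in the mitochondrion and 4 (Acad11, Crat, Crot and Eci2) in the peroxisome. Among 1586 other tested genes with the mitochondrion term, 62 fell and 11 rose, with a median of -0.11. Over all 18315 genes tested, 306 fell (1.67%) and 210 rose, with a median of 0.0034. KEGG's fatty acid degradation pathway held 15 of the 30 and 30 other tested genes, of which 4 fell: Acsl1, Adh4, Cyp4a12a and Cyp4a12b (median of the 30 others -0.36). The 2 Cyp4a12 genes are near-identical copies whose counts are uncertain. KEGG's PPAR signalling pathway held 6 of the 30 and 66 others, of which 8 fell (median -0.28). KEGG's ketone body pathway held Acat1 and Bdh1 and 8 other tested genes, none called by edgeR (3 at an unadjusted p under 0.05; DESeq2 called 1), with a median of 0.039 for those 8.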

How the data were processed

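Liver RNA of 8 libraries was compared, 4 PBS and 4 rFGF21. The authors deposited whole-number read counts per gene, per the file headers. The names Bowtie 0.12.2 and mm8 come from the submitters' processing notes, while 87.3% of the table's gene coordinates equal those of GENCODE M21 (GRCm38). No source used here gives the counting tool or strand setting, and overlapping genes may share counts. The columns' numbers run past those of the samples and were mapped to groups only, by name. Of the per-sample columns 10 were not used: 2 of counts, which have no matching FPKM column, and the 8 of FPKM, for which 1 measure per group was kept.

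Genes were filtered with filterByExpr, scaled with TMM and tested with edgeR 4.0.16 (R 4.3.3) by quasi-likelihood, two-sided, at an adjusted p under 0.05 (Benjamini-Hochberg over 18315 genes). Ratios of gene pairs used CPM plus 0.5 and an exact permutation test. Depths of 62756328 to 73313449 counts gave each of the 30 genes at least 238 reads in every library, so counting error was small beside the spread between libraries. No pair of libraries agreed within sampling noise. The fit was tested on simulated counts, with changes set in genes drawn from all those tested. It called 16% of 1.5-fold, 44% of 2-fold, 76% of 4-fold and 94% of 8-fold changes, and 5.74% of its calls were false. Most changes of 1.5-fold were thus missed, so a gene that did not pass is not shown to be unchanged. Alternatives were other scalings and filters, DESeq2 1.42.0, a replicate block and leaving out libraries. The 30 genes, the lists and the motifs were chosen with earlier results of these data known, and the annotation terms after the files were seen. Genes are described singly where called, then at an unadjusted p under 0.05, then by level, and of each other list up to 4 with the smallest p; further genes named were chosen after their values were seen. Results of some genes of these lists are not reported here.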

Additional observations from a re-analysis of the deposited data

Results flagged for a closer look

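Within the groups of 4 libraries, 9 of 80 sets of values had a single library far from the other 3 by Dixon's test at the 95% level. For independent sets chance gives about 1 in 20. These sets come from the same 8 libraries and the ratios reuse the same genes, so the count cannot be judged against that rate. PBS library 4 accounted for 5 of the 9 flags. Acad12 stood at 13.6 CPM in it against 20.8 in the next PBS library, and Decr1 at 107 against 160 CPM. Its log2 ratio of Acadvl to Acadl was 0.72 against 0.98, that of Hadha to Hadhb was 1.44 against 0.81, and its mitochondrially coded share of counts was 7.96% against 4.55%. The rFGF21 library 3 was high for Acad11 (260.1 CPM against 225) and for Eci1 (65.8 against 52.7 CPM). The rFGF21 library 2 was high for Pdk4 (10.6 against 6.91 CPM) and low in its mitochondrially coded share (3.27% against 4.09%).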

How the results depend on the processing

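Against 516 genes called, 3 of them among the 30 and 4 among the other pathway genes, DESeq2 called 1424, 9 and 17. Without the low-count filter 198, 1 and 2 were called. Scaling by library totals alone called 435 genes and 1 of the 30, Cpt2. Leaving out PBS libraries 2 and 4 together, chosen after seeing the data, called 160, 3 (Slc25a20 in place of Eci1) and 2. Leaving out 1 library at a time called 131 to 486 genes, 1 to 9 of the 30 and 1 to 9 of the other pathway genes. Cpt2 was called in 16 of 17 alternatives, Crat in 9 and Eci1 in 7.

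A replicate block on the columns' numbers, which 3 pairs of libraries share, called 12 genes, 0 of the 30 and 1 of the other pathway genes. Same-numbered libraries correlated at 0.065, -0.036 and -0.099 in their deviations from the group means, so no pairing by number was seen. With 3 pairs, these values cannot exclude a pairing. With the block Cd36 was at -0.10 and the Hadha/Hadhb ratio at 0.062.

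Signs changed for genes and ratios near 0. Bdh1 was at 0.020 without PBS libraries 2 and 4 and at 0.063 with library totals. With 1 library left out, Bdh1 ranged from -0.082 to 0.056, Cd36 from -0.21 to 0.23, Crot from -0.37 to 0.046 and Pdk4 from -0.58 to 0.010 in log2 fold change. The Hadha/Hadhb ratio ranged from -0.20 to 0.017 and the Eci2/Eci1 ratio from -0.019 to 0.19. The causes were not tested. Fits of limma on log2 FPKM values and ratios of FPKM values, listed at the outset, were not run, since those columns were not used. Each of the 30 genes had at least 238 reads in every library.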
